A study of Mus musculus with 37 samples.

Results

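The genes described here are the subunits of the proteasome and the proteins that assemble, activate or inhibit it, as expressed in the gastrocnemius muscle of mice with and without the Nampt gene in skeletal muscle. They were chosen by symbol: protein-coding genes whose name starts with Psma, Psmb, Psmc, Psmd, Psme, Psmf or Psmg and whose mean expression over the 37 libraries was at least 1 CPM (counts scaled to a common library total). Of 50686 genes in the count table, 50 matched the symbols and 47 met the level. Psma8 at 0.0732 CPM, Psmb11 at 0.0125 CPM and Psme2b at 0.868 CPM fell below it, and Psmc3ip at 1.42 CPM and Psmb9 at 2.17 CPM lay just above it. All 47 passed the filter on low counts and were tested among 16728 genes. By structure they divide into 7 alpha ring genes (Psma1 to Psma7), 7 constitutive beta ring genes (Psmb1 to Psmb7), 6 ATPases of the cap (Psmc1 to Psmc6), 11 other cap subunits, 5 immunoproteasome genes (Psmb8, Psmb9, Psmb10, Psme1 and Psme2), 3 other activators or inhibitors (Psme3, Psme4 and Psmf1) and 7 assembly chaperones (Psmd5, Psmd9, Psmd10 and Psmg1 to Psmg4). Psmc3ip shares only the symbol: its protein acts in meiotic recombination and is not a proteasome subunit.

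The proteasome is the protease that degrades proteins tagged with ubiquitin. Its barrel-shaped core has outer alpha rings, which gate the entry, and inner beta rings, which carry the proteolytic sites in Psmb5, Psmb6 and Psmb7. The regulatory cap binds ubiquitin chains through its non-ATPase subunits and uses its ring of ATPases to unfold the protein and feed it into the core. Interferon-responsive and immune cells replace the catalytic subunits with Psmb8, Psmb9 and Psmb10 and can cap the core with the Psme1-Psme2 activator, and the resulting immunoproteasome supplies peptides to MHC class I. In skeletal muscle the ubiquitin-proteasome system is known for its part in protein turnover and atrophy.

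RNA-seq was made from gastrocnemius muscle of wild-type animals and of mice labelled SMNKO, which lack Nampt in skeletal muscle only. Nampt makes the NAD precursor in the salvage route and limits its rate. Wild-type libraries numbered 6 at 2 weeks of age, 6 at 4 weeks, 2 at 6 weeks and 5 at 8 weeks, and knockout libraries 5, 5, 2 and 6 at the same ages. Strain, Cre promoter and deleted exon are not given in the sources used here, and the sex was not recorded at 2 weeks. At later ages wild-type mice 1, 3, 4 and 35 and knockout mice 11 and 19 were labelled female and the others male. Labelled sex is thus not balanced between genotypes. At 2 weeks sequencing pools A and B held 2 and 4 wild-type and 4 and 1 knockout libraries. Each library carries its own number and is taken here as 1 mouse, so p-values measure the spread between these samples. Whole muscle was used, so a lower level can mean fewer cells of a type or less RNA per cell, and these cannot be told apart.

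Total counts ran from 5192700 to 23134727 per library. Nampt, counted over all its exons, averaged 65.1 ± 9.32 CPM in wild-type and 33.1 ± 1.5 CPM in knockout muscle at 2 weeks (SD, n = 6 and 5), and 204 ± 27.5 against 49.3 ± 3.40 CPM at 8 weeks (SD, n = 5 and 6), with no overlap between genotypes at either age. In 5 libraries more than 5% of counts came from nuclear ribosomal RNA genes: wild-type mice 3, 4, 34 and 35 and knockout mouse 8. Mice 34 and 35 are the only 8-week wild-type libraries of sequencing pool A. At 8 weeks, wild-type mouse 36 stood apart with 9293 CPM of the slow myosin Myh7, against 130 to 659 CPM in the other 4, and 6596 CPM of the fast myosin Myh4, against 49569 to 63935 CPM. The sex-linked genes of 3 libraries did not match their label. All 11 fibre markers were detected in every library, which shows skeletal muscle but cannot tell the gastrocnemius from another muscle.

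The members were expressed over a wide range of levels. Levels per kb divide by all annotated exon bases of a gene, so their order depends in part on the annotation. Per kilobase of exon and averaged over the 37 libraries, the highest levels belonged to the cap ATPase Psmc3 at 71.4 CPM per kb, the alpha subunit Psma6 at 69.3, the catalytic beta subunit Psmb6 at 68.7 and the cap ATPase Psmc5 at 63.0 CPM per kb. Psme4, the PA200 activator that binds the core in place of the cap, stood at 45.9 CPM per kb, and its long transcript gave it the most counts of all members, a mean of 384 CPM. The lowest levels belonged to Psmb9 at 0.594, Psmc3ip at 0.782, the chaperone Psmg3 at 1.59 and Psmb8 at 1.71 CPM per kb. Among inducible and constitutive catalytic pairs, Psmb10 stood at 6.57 against 32.6 CPM per kb for Psmb7. Summed over all members, expression ran from 2756 to 4330 CPM per library.

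RefSeq promoter windows (GRCm38.p6, 250 bases before to 50 after the start) matched 40 of the 47 members in 43 windows. They were searched on both strands for binding motifs of factors known to act on proteasome genes. TGANNNNGC, a relaxed antioxidant response element of the kind bound by Nfe2l1, was in 58.1% of member windows and 41.3% of 32851 windows of all genes. Its stricter form TGANTCAGC, which is contained in it, was in 2.33% against 1.19%. The core of the interferon-stimulated response element, a pair of GAAA words with 2 bases between them, was in 11.6% (5 genes: Psmb3, Psmd4, Psmd9, Psme1 and Psmg4) against 3.44%. CCAAT was in 32.6% against 37.4%, and TTCNNNGAA, the interferon gamma activated site, in 6.98% against 8.3%. A match describes letters only. The stretches below are promoter bases outside every annotated exon for a catalytic subunit that was higher in knockout muscle at 8 weeks (Psmb5), an inducible catalytic subunit that was also higher (Psmb10), a cap ATPase and a cap ubiquitin receptor that were lower (Psmc2, Psmd4), and the activator with the most negative fold change (Psme4). They are written 5′ to 3′ along the gene with motif matches in capitals. The labels describe the printed stretch alone, and matches elsewhere in a window are not marked. For Psme4 the stretch covers positions -169 to -50, and its window holds an inverted TGANNNNGC at -7 to 2 from the start.
Psmb5, chr14:54618023-54618142, minus strand, with TGANNNNGC 47 to 39 bases before the start: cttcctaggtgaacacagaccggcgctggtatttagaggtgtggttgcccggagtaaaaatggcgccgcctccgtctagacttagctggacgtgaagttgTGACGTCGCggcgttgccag
Psmb10, chr8:105938445-105938564, minus strand, no match: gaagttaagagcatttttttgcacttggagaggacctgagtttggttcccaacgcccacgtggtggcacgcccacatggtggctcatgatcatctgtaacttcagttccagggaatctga
Psmc2, chr5:21786530-21786649, plus strand, before the downstream of its 2 annotated starts, with TGANNNNGC in 2 places: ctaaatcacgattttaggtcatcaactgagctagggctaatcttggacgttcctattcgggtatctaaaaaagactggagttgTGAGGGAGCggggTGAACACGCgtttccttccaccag
Psmd4, chr3:95042615-95042734, minus strand, with an inverted CCAAT and an inverted interferon-stimulated response element core: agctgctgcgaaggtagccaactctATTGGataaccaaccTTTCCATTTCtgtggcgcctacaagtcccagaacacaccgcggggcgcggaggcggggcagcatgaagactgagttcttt
Psme4, chr11:30771606-30771725, plus strand, no match: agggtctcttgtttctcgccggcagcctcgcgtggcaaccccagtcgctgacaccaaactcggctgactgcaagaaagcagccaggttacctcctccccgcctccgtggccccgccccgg

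In wild-type muscle many proteasome genes were higher at 4 than at 2 weeks of age. With edgeR's quasi-likelihood test at a Benjamini-Hochberg adjusted p below 0.05, 26 of 47 members were higher at 4 weeks and 1 was lower, or 57.4% called where 47.9% of all genes were. In direction the members stood apart from the background, since 24.2% of all genes were called higher and 23.6% lower. The median log2 fold change was 0.25 over members and -0.04 over all genes. When library sizes alone replaced the TMM scaling factors, the all-gene median moved to -0.53, and only 1 member was called higher and 3 lower. The members' median was then 0.30 above that of all genes, as with TMM. Other scaling factors move all genes of a comparison by similar amounts. Distances to the all-gene median therefore change little and are no separate check. Every 4-week library was above every 2-week library for 21 members and below for 0, or 44.7% of members where 31.2% of all genes did not overlap (16.9% higher and 14.3% lower). Without the 5 rRNA-rich libraries 31 members were higher and 1 lower, and in pools A and B alone 4 and 25 were higher.

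All 6 cap ATPases were higher at 4 weeks, with a class median of 0.41, and so were 7 of 11 non-ATPase subunits, with a median of 0.33. Of the core, 5 of 7 alpha genes and 3 of 7 beta genes rose. Psmb7, the trypsin-like catalytic subunit, went from 89.4 to 97.9 CPM over the 6 mice at 2 weeks (median 93.5) to 116 to 170 CPM at 4 weeks (median 145), a log2 change of 0.63 (SE 0.11, edgeR adjusted p = 2.68e-05). Every 4-week library was above every 2-week library. Psme4 went from 240 to 260 CPM (median 251) to 438 to 567 CPM (median 499), a change of 1.0 (SE 0.12, edgeR adjusted p = 4.85e-08), and the ages were again apart. Among immunoproteasome genes only Psme1 was called, at 0.47 (SE 0.10, edgeR adjusted p = 0.000302). The chaperone Psmg4 was the only member to fall, by 0.50 (SE 0.15, edgeR adjusted p = 0.00596). These medians and calls are on the TMM scale. Scaled by library sizes alone, the class medians of the ATPases and non-ATPases were -0.07 and -0.16, which is 0.46 and 0.37 above the median of all genes.

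From 4 to 8 weeks in wild-type muscle 8 members fell and none rose, or 17% called where 15.4% of all genes were, 7.59% lower and 7.8% higher. The 8 were Psma3, Psma6, Psmb5, Psmb6, the cap ATPases Psmc3 and Psmc4, and the cap subunits Psmd6 and Psmd12, by 0.23 to 0.66 on the log2 scale. Psma3 had the most negative change, -0.66 (SE 0.12, edgeR adjusted p = 0.00025), with 79.5 to 121 CPM at 4 weeks and 47.3, 55.6, 64.7, 68.5 and 73.2 CPM at 8 weeks. The number of members called depended on single libraries: it ran from 3 to 11 when each library was left out, and moved by over 1.5 times without wild-type mouse 2, 5, 6, 34, 35 or 36. Without the 5 rRNA-rich libraries 5 fell, with library sizes alone 1 fell, and in pool A alone 0 did.

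At 2 weeks no proteasome gene passed the test between knockout and wild-type muscle over all libraries, and 1, Psme4, did with only the 2-week groups in the fit. By edgeR over all libraries 0 of 47 members were called, beside 0.0598% of all genes, and 0 had an unadjusted p below 0.05, beside 4.85% of all genes. DESeq2 also called 0. The median log2 fold change was -0.02 over members and over all genes. The member with the smallest p was Psme4, at 240 to 260 CPM in wild-type mice (median 251) and 193, 195, 215, 215 and 216 CPM in knockout mice, a difference of -0.24 (SE 0.12, edgeR adjusted p = 0.988). With only the 2-week groups in the fit it was -0.23 (edgeR adjusted p = 0.0377), where 1.18% of all genes were called. Knockout values were all below the wild-type values for Psme4 and for Psma3, at 52.7 to 62.4 against 63.2 to 73.6 CPM. These 2 members are 4.26% of the 47, where 3.47% of all genes did not overlap and 2.45% were lower without overlap.

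At 4 weeks 2 members were higher in knockout muscle and 1 was lower, or 6.38% of members against 5.66% of all genes (2.46% higher and 3.19% lower), which is near the background. The median was -0.02 over members and -0.00 over all genes. Psmd8, a subunit of the cap lid, was at 111 to 160 CPM in wild-type mice (median 136) and at 161, 162, 190, 205 and 272 CPM in knockout mice. The groups did not overlap, and the change was 0.52 (SE 0.15, edgeR adjusted p = 0.0314). Psmd11, a lid subunit known for promoting cap assembly, was at 48.8 to 65.6 CPM (median 52.8) against 53.1, 57.6, 67.3, 84.1 and 155 CPM, a change of 0.56 (SE 0.16, edgeR adjusted p = 0.0332). The highest Psmd11 value, 155 CPM, was that of knockout mouse 8, the rRNA-rich knockout library, and the groups overlapped. Psma3, an alpha ring subunit, was lower, at 79.5 to 121 CPM (median 95.5) against 46.0, 67.8, 70.0, 76.3 and 81.9 CPM, a change of -0.50 (SE 0.12, edgeR adjusted p = 0.00943). Knockout mouse 8 was the lowest for Psma3, and only knockout mouse 10 reached the wild-type range.

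These 4-week calls rested on few libraries. Without the 5 rRNA-rich libraries 1 member was called, Psma3 without knockout mouse 8 stood at -0.38 (adjusted p = 0.0567), and Psmd11 without the rRNA-rich libraries at 0.31 (adjusted p = 0.276). Over all libraries left out one at a time the count ran from 0 to 4, with moves of over 1.5 times without wild-type mouse 2, knockout mouse 7 or knockout mouse 8. Psmd8 was lost without any of wild-type mice 2, 3 and 4 and knockout mice 7, 8 and 12. Within pool A 3 members were higher and 1 lower, and 0 were called within pool B or with labelled sex as a term.

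At 6 weeks, with 2 mice in each group, Psme4 was the only member called, beside 9.67% of all genes (5.33% higher and 4.34% lower). It was at 641 and 711 CPM in wild-type and at 304 and 379 CPM in knockout muscle, a change of -0.99 (SE 0.20, edgeR adjusted p = 0.00215). Both knockout values were below both wild-type values. Psme4 was not called in pool B alone or with only these 4 libraries in the fit. Of the 47 members 35 had a negative fold change and 10, or 21.3%, had an unadjusted p below 0.05, where 26.6% of all genes did. The median was -0.21 over members and 0.03 over all genes, and the core showed the same, with -0.29 for the alpha and -0.31 for the beta ring. For 26 members both knockout values were below both wild-type values and for 4 both were above, or 63.8% where 54% of all genes did not overlap (26.5% lower and 27.6% higher). Without the rRNA-rich libraries 3 members were called lower, and without wild-type mouse 36 as well, 9. The libraries left out are of other ages. Their removal alters the count filter, scaling factors, shared spread, pool estimate and p adjustment.

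**Figure D1:**
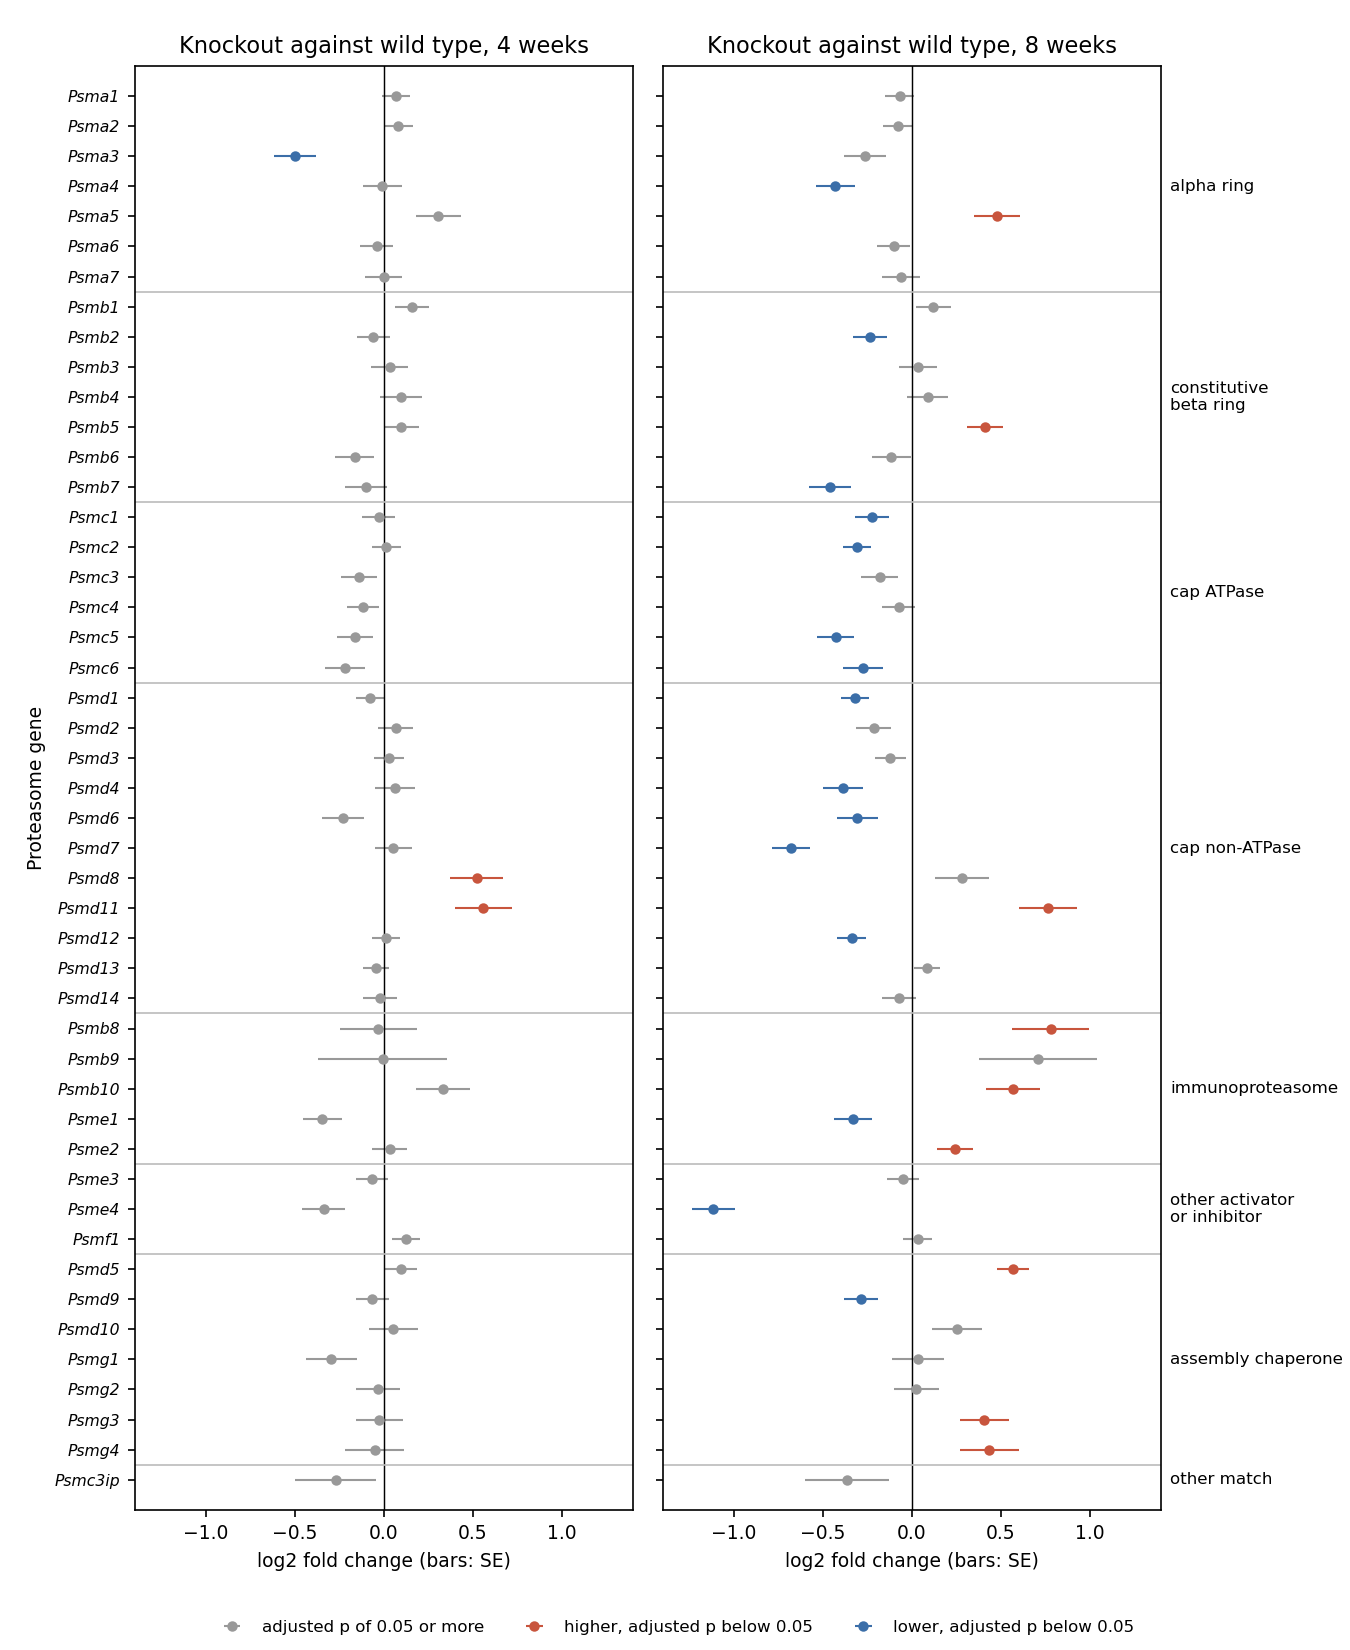
Log2 fold change (points) ± SE (bars) of knockout over wild-type muscle for all 47 members at 4 weeks and at 8 weeks, with members on the vertical axis grouped by class, red points for members called higher, blue for lower, and grey for the rest, at an adjusted p of 0.05. At 8 weeks the cap ATPases lie left of 0 and the immunoproteasome genes other than Psme1 lie right of 0, on the TMM scale. If libraries are scaled by size alone, the 8-week median of all genes moves from 0.03 to 0.82 and the cap ATPase median to 0.60, right of 0.

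At 8 weeks members were called in both directions in knockout muscle. Of 17 cap subunits 9 fell and 1 rose, while 3 of 5 immunoproteasome genes and 3 of 7 assembly chaperones rose and 1 of each fell. In all, 9 members rose and 15 fell, or 51.1% called, near the 52.5% of all genes called at this age. The share of members called is therefore not a result about the proteasome, and in direction 19.1% of members were higher and 31.9% lower, against 26.2% and 26.3% of all genes. The members' median was -0.07 and that of all genes 0.03. Libraries did not overlap between the genotypes for 5 higher and 3 lower members, 17% against 24.2% of all genes (13.5% higher and 10.7% lower). When scaled by library sizes alone, the all-gene median shifted to 0.82 and the split became 40 higher and 0 lower, so the directions below are relative to the bulk of genes. TMM factors at this age were 0.443 to 1.1 in wild-type and 1.22 to 1.59 in knockout libraries. Relative to that shifted median, all 15 lower members stayed below and all 9 higher members stayed above. Such positions are nearly fixed under a change of scaling, so this is no separate check of the directions. DESeq2 called 10 higher and 14 lower, and RLE factors 9 and 12. Without the 5 rRNA-rich libraries 5 members were higher and 17 lower, and without wild-type mouse 36 as well, 6 and 22. Both fits leave no 8-week wild-type library of pool A, and the second keeps only wild-type mice 37 and 38 at this age. Within pool A 5 were higher and 2 lower, and within pool B 5 and 14, and the cap ATPase median was -0.18 in pool A and -0.31 in pool B.

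Of the 6 cap ATPases 4 fell at 8 weeks and 0 rose, where 26.3% of all genes fell and 26.2% rose. On the TMM scale, Psmc1, Psmc2, Psmc5 and Psmc6 were called and all 6 had a negative fold change, with a median of -0.25. Scaled by library sizes alone it was 0.60, which is 0.22 below the all-gene median, where the TMM value is 0.28 below it. Psmc5 was at 73.1, 91.7, 98.6, 99.3 and 106 CPM in wild-type muscle and at 53.4 to 90.7 CPM in the 6 knockout mice (median 68.7), a change of -0.43 (SE 0.10, edgeR adjusted p = 0.000735). Psmc2 was at 66.5, 89.1, 98.2, 99.4 and 106 CPM against 67.4 to 86 CPM (median 71.5), a change of -0.31 (SE 0.08, edgeR adjusted p = 0.00142). In both genes wild-type mouse 36, with its slow myosin, was the lowest wild-type mouse, within the knockout range for Psmc5 and just below it for Psmc2, while the other 4 lay above every knockout mouse. Psmc6 was at 95.6, 109, 121, 130 and 137 CPM against 83.2 to 111 CPM (median 102), a change of -0.28 (SE 0.11, edgeR adjusted p = 0.0383). Psmc1 and Psmc6 lost their call without any of 7 and 6 single libraries, respectively, and under RLE factors.

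Of the 11 non-ATPase cap subunits 5 fell and 1 rose at 8 weeks, near the 52.5% of all genes called. The class median of -0.22 is 0.25 below that of all genes. It was 0.60 with library sizes alone, which is 0.22 below. Psmd7, the partner of the deubiquitinating lid subunit Psmd14, had the most negative change of the cap. It was at 62.9, 85.6, 87.5, 101 and 107 CPM in wild-type and at 47.7 to 62.4 CPM (median 55.3) in knockout muscle, a change of -0.68 (SE 0.11, edgeR adjusted p = 2.54e-06). The genotypes did not overlap, although wild-type mouse 36 lay within 1 CPM of the highest knockout mouse. Psmd12, another lid subunit, was at 93.9, 97.7, 109, 112 and 119 CPM against 70.0 to 94.4 CPM (median 85.7), a change of -0.34 (SE 0.08, edgeR adjusted p = 0.000601). Psmd4, which binds ubiquitin chains, was at 110, 110, 130, 139 and 156 CPM against 74.3 to 115 CPM (median 107), a change of -0.39 (SE 0.11, edgeR adjusted p = 0.00422). Psmd1, a scaffold of the cap base, changed by -0.32, and Psmd6 by -0.31, though Psmd6 lost its call when any of 6 single libraries was left out.

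Psmd11 went the other way. It was at 45.6, 49.9, 54.2, 63.9 and 69.0 CPM in wild-type and at 70.2 to 134 CPM (median 90.8) in knockout muscle at 8 weeks, a change of 0.76 (SE 0.16, edgeR adjusted p = 0.000202). Every knockout mouse was above every wild-type mouse. The call held in each of the 11 fits that left out 1 of these libraries. Psmd8, higher at 4 weeks, was at 93.3, 114, 160, 167 and 208 CPM against 147 to 230 CPM (median 173) and was not called, with a difference of 0.28 (SE 0.15, edgeR adjusted p = 0.116).

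**Figure D2:**
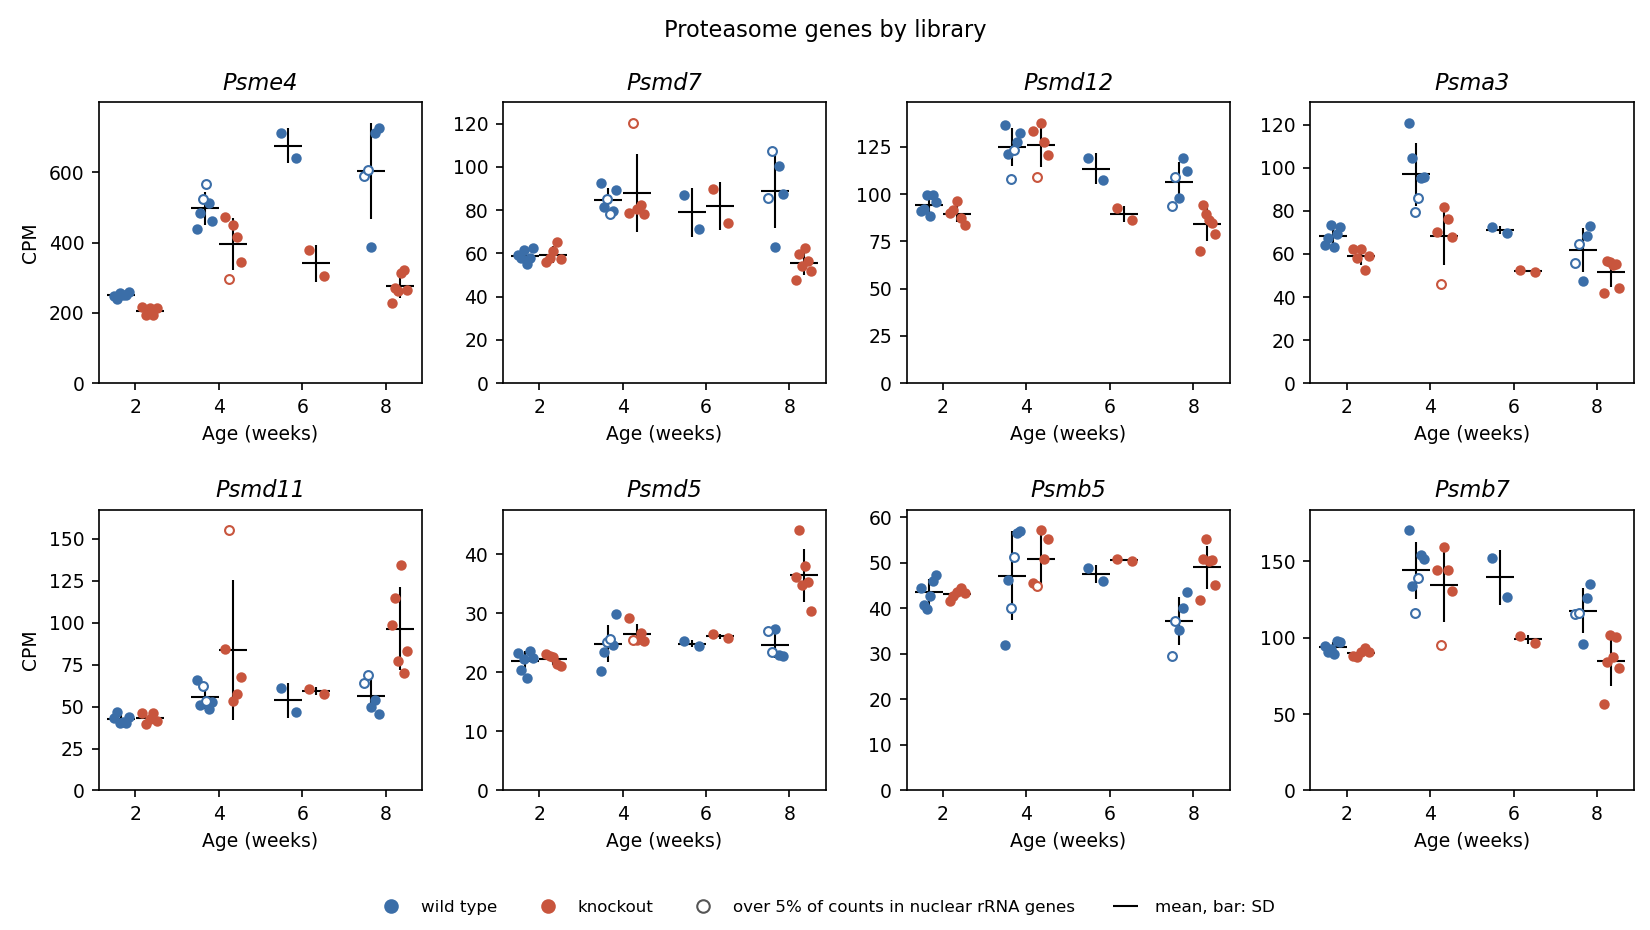
CPM per library (points, by genotype and age in weeks) of Psme4, Psmd7, Psmd12, Psma3, Psmd11, Psmd5, Psmb5 and Psmb7, with the mean and SD of each group and open symbols for the 5 rRNA-rich libraries. Psme4 in knockout muscle stays between 228 and 322 CPM at 8 weeks while wild-type mice reach 387 to 726 CPM, and Psmd11 and Psmd5 are above all wild-type mice in every knockout mouse at 8 weeks.

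In the core 2 of 14 subunits rose and 3 fell at 8 weeks, with a median of -0.07. Of all genes 52.5% were called at this age. Among the catalytic genes, Psmb5, the chymotrypsin-like subunit, was at 29.5, 35.3, 37.3, 40.1 and 43.5 CPM in wild-type and at 41.8 to 55.1 CPM (median 50.5) in knockout muscle, a change of 0.41 (SE 0.10, edgeR adjusted p = 0.000954). Only the lowest knockout mouse lay within the wild-type range. Psmb7 was at 95.6, 115, 116, 126 and 135 CPM against 56.4 to 102 CPM (median 85.8), a change of -0.46 (SE 0.12, edgeR adjusted p = 0.00129), and only wild-type mouse 36 lay within the knockout range. Psmb6, the caspase-like subunit, was at 93.8, 111, 116, 118 and 126 CPM against 83.1 to 129 CPM (median 103) and was not called, with a difference of -0.12 (SE 0.11, edgeR adjusted p = 0.39). Of the 3 constitutive catalytic subunits, 1 rose, 1 fell and 1 did not pass the test.

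The alpha ring subunits Psma4 and Psma5 also moved in opposite directions at 8 weeks. Psma4 was at 67.5, 70.4, 81.3, 85.5 and 85.8 CPM against 43.7 to 73.2 CPM (median 59.1), a change of -0.43 (SE 0.11, edgeR adjusted p = 0.00134). Psma5 was at 13.5, 18.5, 23.7, 24.3 and 27.6 CPM against 27.2 to 34.2 CPM (median 30.6), a change of 0.48 (SE 0.13, edgeR adjusted p = 0.00247). The lowest wild-type values of Psma5 were those of the rRNA-rich mice 34 and 35, and without the 5 rRNA-rich libraries the change was 0.27 (adjusted p = 0.0539). Psmb5 kept its call without those libraries and lost it, at 0.28 (adjusted p = 0.0879), when wild-type mouse 36 was left out too. Of the 38-base words in their exons 66.1% for Psmb5, 54.8% for Psma5 and 15.4% for Psma4 also occur in other annotated genes, so their counts are uncertain. Among other members described, the share was 24.7% for Psmc1, 16.9% for Psma3, with genes of up to 394 CPM, and 10.9% for Psmd11, with 997 genes of up to 2086 CPM, so these are uncertain too. Psmb2, the other core subunit called, changed by -0.23 and lost its call when any of 6 single libraries was left out.

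Of the 5 immunoproteasome genes 3 rose and 1 fell in knockout muscle at 8 weeks, where 26.2% of all genes rose and 26.3% fell. Psmb8, Psmb10 and Psme2 were higher and Psme1 lower, with a class median of 0.57, which is 0.53 above the median of all genes and 0.55 above it with library sizes alone. Psmb8, the inducible chymotrypsin-like subunit, was at 4.28, 4.78, 5.24, 5.72 and 6.55 CPM in wild-type and at 8.37 to 11.2 CPM (median 9.41) in knockout muscle, a change of 0.78 (SE 0.22, edgeR adjusted p = 0.00284). Psmb10, the inducible trypsin-like subunit, was at 9.29, 10.5, 10.8, 11.7 and 12 CPM against 13.4 to 18 CPM (median 17.1), a change of 0.57 (SE 0.15, edgeR adjusted p = 0.00207). In both genes every knockout mouse was above every wild-type mouse. Psmb9, the third inducible subunit, was at 0.869, 1.23, 2.36, 2.5 and 3.05 CPM against 3.25 to 5.16 CPM (median 3.69). The groups of Psmb9 did not overlap either, but at this low level the change of 0.71 (SE 0.33, edgeR adjusted p = 0.0721) was not called by edgeR, while DESeq2 gave 0.79 (adjusted p = 0.0427).

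The subunits of the Psme1-Psme2 activator, which join in 1 ring, moved apart at 8 weeks. Psme1 was at 26.9, 27.4, 28, 28.3 and 29.5 CPM in wild-type and at 19.4 to 26 CPM (median 22.5) in knockout muscle, a change of -0.33 (SE 0.11, edgeR adjusted p = 0.00976), with no overlap. Psme1 was 0.48 with library sizes alone, below the all-gene median. Psme2 was at 13.2, 13.2, 13.5, 14.5 and 15.6 CPM against 14.1 to 19.7 CPM (median 16.9), a change of 0.24 (SE 0.10, edgeR adjusted p = 0.0428). Psme2 lost its call without any of 7 single libraries and shares 31.6% of its 38-base words with other genes.

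**Figure D3:**
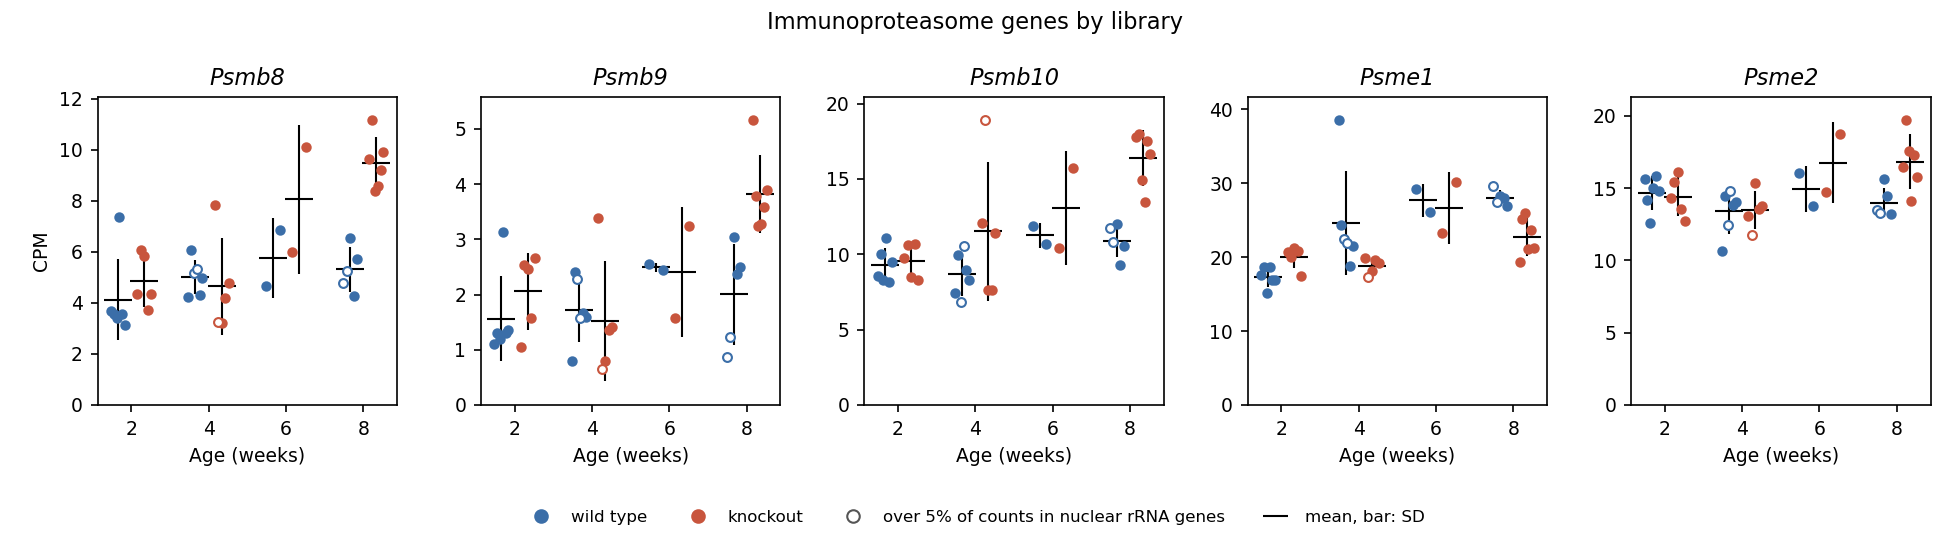
CPM per library (points, by genotype and age in weeks) of Psmb8, Psmb9, Psmb10, Psme1 and Psme2, with group means and SD and open symbols for rRNA-rich libraries. Knockout mice at 8 weeks lie above all 8-week wild-type mice for Psmb8, Psmb9 and Psmb10 and below them for Psme1, and wild-type mouse 25 at 2 weeks is high for Psmb8 and Psmb9.

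Per kilobase of exon, Psmb8, Psmb9 and Psmb10 together made up 6.34 ± 1.29% of the level of Psmb5, Psmb6 and Psmb7 in wild-type and 10.2 ± 2.13% in knockout muscle at 8 weeks (SD, n = 5 and 6). The ranges of 5.09 to 8.36% and 7.57 to 13.7% overlapped. At 2 weeks the shares were 4.94 ± 1.05% and 5.31 ± 0.466% (SD, n = 6 and 5), and at 4 weeks 3.97 ± 0.667% and 5.36 ± 2.75% (SD, n = 6 and 5). Knockout mouse 8, the rRNA-rich knockout library, had the highest 4-week share, 9.69%. The other 4-week knockout mice were at 2.83 to 6.17%, overlapping the wild-type range of 3.23 to 4.81%. The ratio of Psmb10 to Psmb7 at 8 weeks was 18.9 ± 4.17% against 40.5 ± 12.4% (SD, n = 5 and 6), with wild-type mice at 14.8 to 25.2% and knockout mice at 29.4 to 63.2%. Psmb9 to Psmb6 was 0.929 ± 0.495% against 1.95 ± 0.647%, and Psmb8 to Psmb5 was 3.86 ± 0.798% against 5.20 ± 0.850% (SD, n = 5 and 6 each). Both overlapped between genotypes. Psmb9 to Psmb6 ran from 0.401 to 1.66% against 1.29 to 3.18%, and Psmb8 to Psmb5 from 2.83 to 4.94% against 4.04 to 6.12%. These ratios compare genes within a library, so library scaling does not enter them.

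**Figure D4:**
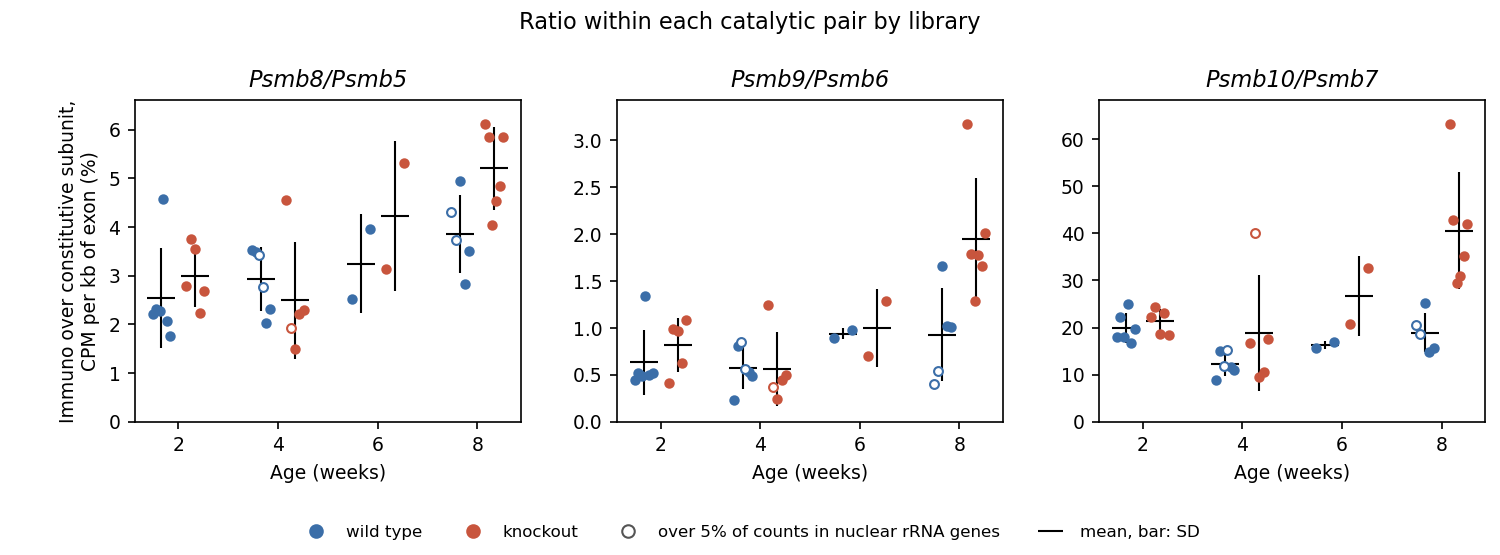
Ratio in percent of CPM per kb of each inducible catalytic subunit to its constitutive counterpart (Psmb8 to Psmb5, Psmb9 to Psmb6, Psmb10 to Psmb7) in each library, by genotype and age in weeks, with group means and SD. The Psmb10 to Psmb7 ratio at 8 weeks is 29.4 to 63.2% in knockout and 14.8 to 25.2% in wild-type mice. The Psmb8 to Psmb5 and Psmb9 to Psmb6 ratios overlap between the genotypes at that age.

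Markers of leukocytes were higher at 8 weeks, where Psmb8, Psmb10 and Psme2 were called higher and Psme1 lower. At that age the summed level of 5 pan-leukocyte markers was 16.6 to 21.9 CPM in wild-type and 106 to 234 CPM in knockout muscle, and all 5 were called higher. For 9 macrophage markers it was 119 to 166 against 732 to 1610 CPM, and all 9 were called higher. Of 7 tested T and NK cell markers 2 were called higher. That is near the share of all genes, of which 26.2% were higher and 26.3% lower at this age. T and NK cell sums were 0.406 to 2.5 against 1.36 to 4.80 CPM, with up to 7 of 8 markers at 0 in a wild-type library. B cell markers summed to 0.619 to 1.30 against 0.470 to 1.16 CPM, with 0 of 4 called. Markers of satellite cells and regenerating fibres summed to 27.8 to 74.6 against 355 to 1483 CPM, with 6 of 6 higher. In 2-week wild-type muscle that sum was 483 to 664 CPM. Fibre markers summed to 158073 to 193160 against 72981 to 159426 CPM at 8 weeks, with 8 of 11 lower. Of the other lists, 3 of 5 fibroblast markers were higher and 1 lower, and 4 of 4 endothelial, 4 of 4 Schwann cell and 3 of 4 adipocyte markers were lower. The part of these in the levels of Psmb8, Psmb9, Psmb10, Psme1 and Psme2, and in the lower cap genes, was not tested. At 2 weeks wild-type mouse 25 had the highest Psmb8 and Psmb9, 7.35 and 3.13 CPM against 3.14 to 3.69 and 1.10 to 1.36 CPM in its group. Its leukocyte sum was 78.3 CPM where the group median was 22.4, and its B cell sum was 23.3 CPM where the other 5 were at 0.849 to 1.22 CPM. Its macrophage sum, 210 CPM, was near the 186 to 202 CPM of the others. Knockout mouse 7 at 4 weeks had 3.38 CPM of Psmb9, against 0.652 to 1.42 CPM in its group, with a leukocyte sum of 125 CPM where the median was 29.3, and a B cell sum of 30.3 CPM against 0.400 to 0.652 CPM. At 2 weeks knockout mice 28, 29 and 31 had B cell sums of 19.3, 17.3 and 15.2 CPM, against 1.17 and 1.24 CPM in mice 22 and 30. Their Psmb9 was at 2.53, 2.46 and 2.66 against 1.06 and 1.58 CPM, and their Psmb8 at 6.05, 5.84 and 4.36 against 4.35 and 3.72 CPM. Their Psmb10 was at 10.6, 8.46 and 8.30 against 9.76 and 10.7 CPM. Whether these levels follow the markers was not tested. Knockout mouse 8 at 4 weeks had a leukocyte sum of 86.1 CPM and the highest macrophage sum of its group, 465 CPM. It had the lowest Psmb9, 0.652 CPM, and 3.26 CPM of Psmb8. Its Psmb10, 18.9 CPM, was the highest of its group.

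Psme4 showed the most negative change of all 47 members at 8 weeks. PA200, its product, is known for opening the core to proteins without ubiquitin and for acting on acetylated histones. The gene (ENSMUSG00000040850.17) lies at chr11:30771726-30880361 on the plus strand. It was at 387, 588, 607, 712 and 726 CPM in wild-type and at 228 to 322 CPM (median 268) in knockout muscle, a change of -1.12 (SE 0.12, edgeR adjusted p = 3.68e-09). The genotypes did not overlap, and the lowest wild-type value was that of mouse 36. Psme4 was the only member past 1 on the log2 scale and the only lower member that stayed negative with library sizes alone, at -0.26 (adjusted p = 0.268). At 4 weeks it was at 438 to 567 CPM (median 499) against 295, 344, 416, 449 and 474 CPM, a difference of -0.34 (SE 0.12, edgeR adjusted p = 0.0883). Wild-type medians were 251, 499, 676 and 607 CPM at 2, 4, 6 and 8 weeks, and knockout medians were 215, 416, 341 and 268 CPM.

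Psme3, the nuclear PA28 gamma activator, and Psmf1, the PI31 inhibitor, were not called at any age between genotypes. At 8 weeks Psme3 was at 34.9, 37.9, 38.5, 39.1 and 40.1 CPM against 33.0 to 45.4 CPM (median 36.8), a difference of -0.05 (SE 0.09, edgeR adjusted p = 0.673). Psmf1 was at 13.6, 13.8, 15.2, 15.5 and 15.8 CPM against 13.4 to 16.5 CPM (median 15.3), a difference of 0.03 (SE 0.08, edgeR adjusted p = 0.838).

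Of the 7 assembly chaperones 3 rose and 1 fell at 8 weeks, near the 52.5% of all genes called. The class median of 0.25 is 0.22 above that of all genes, a distance also seen with library sizes alone. Psmd5, which binds cap ATPases during assembly, was at 22.7, 23, 23.4, 26.9 and 27.3 CPM in wild-type and at 30.4 to 44 CPM (median 35.8) in knockout muscle, a change of 0.57 (SE 0.09, edgeR adjusted p = 3.64e-06). Every knockout mouse was above every wild-type mouse. Psmg3 and Psmg4, which together guide the alpha ring, changed by 0.41 (SE 0.14, edgeR adjusted p = 0.0122) and 0.44 (SE 0.17, edgeR adjusted p = 0.029). Psmg4 lost its call without any of 3 single libraries. Psmd9, another chaperone of the ATPase ring, was at 13.5, 16.2, 18.7, 18.8 and 20 CPM against 12.5 to 18 CPM (median 14.2), a change of -0.29 (SE 0.10, edgeR adjusted p = 0.0119). It was 0.54 with library sizes alone, below the all-gene median, and 25.5% of its exon bases overlap a gene on the other strand. Psmg1 was not called, at 5.21, 6.25, 7.21, 7.70 and 9.48 CPM against 6.47 to 8.54 CPM (median 7.51). Psmc3ip, the gene outside the proteasome, was at 0.924 to 2.17 CPM against 0.845 to 1.82 CPM and was not called.

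**Figure D5:**
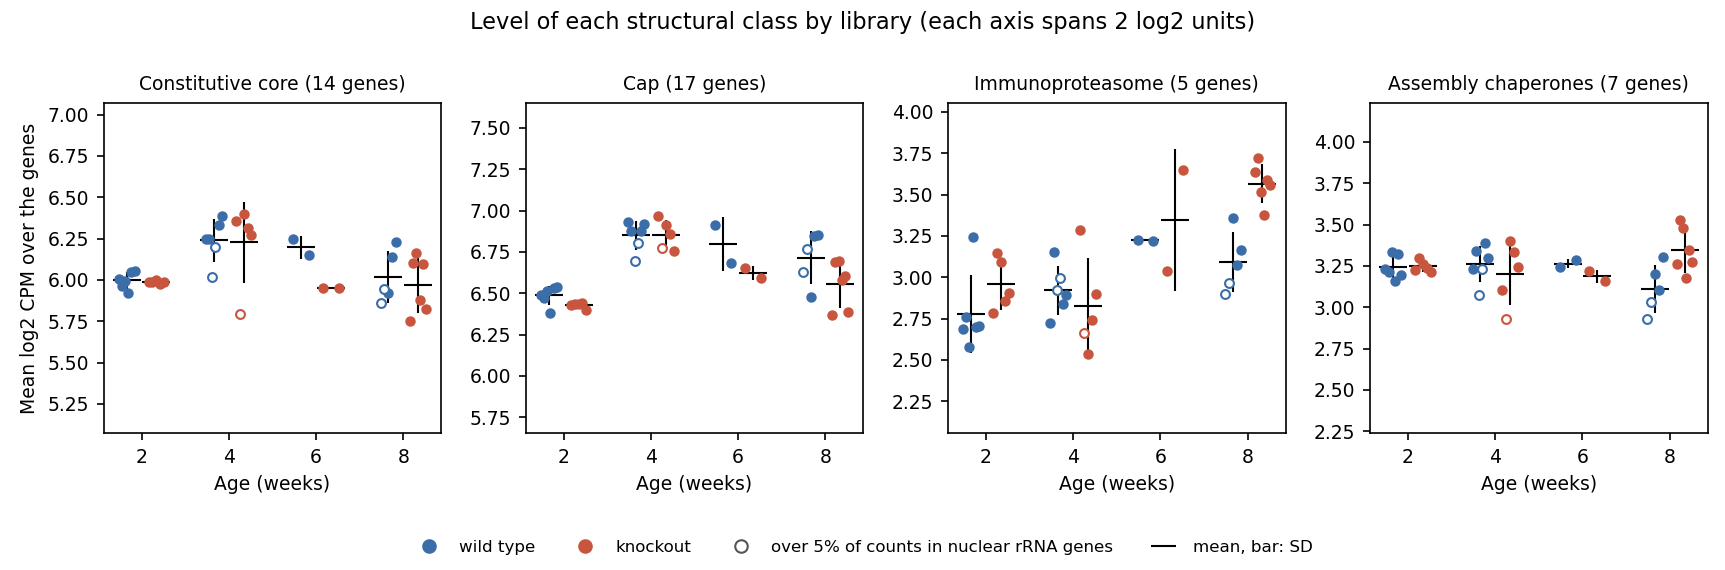
Mean log2 CPM over the 14 constitutive core genes, 17 cap genes, 5 immunoproteasome genes and 7 assembly chaperones in each library, by genotype and age in weeks, with group means and SD on the TMM scale. The cap averages 6.71 in wild-type and 6.55 in knockout muscle at 8 weeks, and the immunoproteasome genes 3.09 and 3.57.

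The effect of the knockout was compared between ages within the same model. For 8 against 4 weeks 8 members differed, 2 upward and 6 downward, or 17% against 27.4% of all genes (13.5% upward and 13.8% downward). Psmd7 differed by -0.73 (SE 0.15, edgeR adjusted p = 0.000496), Psme4 by -0.78 (SE 0.17, edgeR adjusted p = 0.00094), Psmd12 by -0.35, Psmc2 by -0.32, Psmd4 by -0.45 and Psma4 by -0.42. Psmd5 differed by 0.47 (SE 0.13, edgeR adjusted p = 0.0057) and Psmb8 by 0.81 (SE 0.31, edgeR adjusted p = 0.0462). Scaled by library sizes alone, all genes had a median of 0.77 here and 26 members differed upward and 0 downward. The count ran from 4 to 10 as single libraries were left out, moving by over 1.5 times without wild-type mouse 3, 35, 37 or 38 or knockout mouse 39 or 44. For 8 against 6 weeks Psmd7 alone differed, by -0.74 (SE 0.20, edgeR adjusted p = 0.0405), beside 3.25% of all genes (1.78% downward and 1.47% upward), and this call was lost without wild-type mouse 16, 17, 35 or 37 or knockout mouse 19 or 39. For 6 against 4 weeks 0 members differed, with 0.909% of all genes, and for 4 against 2 weeks 0 members and 0% of all genes.

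Within knockout muscle 23 of 47 proteasome genes rose from 2 to 4 weeks and 20 fell from 4 to 8 weeks, 14 of them among those that had risen. From 2 to 4 weeks 23 members rose and 1 fell, or 51.1% against 38.3% of all genes (20.3% higher and 18% lower), with a median of 0.25 where that of all genes was -0.01. Of the 26 members that rose in wild-type muscle 19 were among these 23. From 4 to 8 weeks 6 rose and 20 fell, or 55.3% against 44.6% of all genes (23.1% higher and 21.5% lower), with a median of -0.18 where that of all genes was 0.03. Under scaling by library sizes alone these counts were 0 higher and 6 lower from 2 to 4 weeks, and 20 higher and 0 lower from 4 to 8 weeks. Without the 5 rRNA-rich libraries they were 34 higher and 1 lower, and 5 higher and 28 lower. All 6 ATPases fell from 4 to 8 weeks, with a median of -0.39, and 4 of 5 immunoproteasome genes rose, with a median of 0.58. Of the 15 members lower in knockout muscle at 8 weeks, 14, all but Psmd6, were among the 26 that rose in wild-type muscle from 2 to 4 weeks. These comparisons share libraries, so their overlap is given as a count and not as separate evidence.

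Of 21 tested proteasome partners outside the symbol rule, 2 rose and 10 fell at 8 weeks, or 57.1% called where 52.5% of all genes were, with a median of -0.23. Ecpas, which tethers core and cap, changed by -0.99 (SE 0.13, edgeR adjusted p = 1.4e-07), Zfand5, a proteasome activator, by -0.96, the shuttle factor Ubqln4 by -0.59, and the cap-bound ligase Ube3c by -0.42. Zfand2a, a stress-induced proteasome-binding protein, changed by 0.99 (SE 0.16, edgeR adjusted p = 6.48e-06). The ubiquitin receptor Adrm1, at -0.23 (adjusted p = 0.0515), and the core maturation factor Pomp, at -0.09, were not called. At 4 weeks 1 rose, Nploc4 at 0.40, and 1 fell, Ube3c at -0.35, where 5.66% of all genes were called. In wild-type muscle from 2 to 4 weeks 17 rose and 0 fell, where 24.2% of all genes were higher and 23.6% lower. These growth calls are on the TMM scale, and with library sizes alone the all-gene median there was -0.53. Scaled by library sizes alone, 2 of the 10 lower partners stayed negative at 8 weeks and all 10 lay below the all-gene median, with Pomp at 0.74 and Adrm1 at 0.60.

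Of 14 regulators of proteasome transcription 1 rose and 6 fell at 8 weeks, or 50% called, near the 52.5% of all genes. Nfe2l1, the factor that induces proteasome genes when the proteasome is inhibited, was at 0.34 (SE 0.11, edgeR adjusted p = 0.0642) at 4 weeks and changed by -0.57 (SE 0.11, edgeR adjusted p = 7.59e-05) at 8 weeks. It was 0.25 with library sizes alone, where 1 of the 6 lower regulators stayed negative and all 6 lay below the all-gene median. The knockout effect on Nfe2l1 differed between 8 and 4 weeks by -0.91 (SE 0.16, edgeR adjusted p = 8.76e-05). The CCAAT-binding subunits moved apart, with Nfyb at -0.93 and Nfya at 0.87, and Hsf1 changed by -0.53, Keap1 by -0.51 and the Nfe2l1-processing enzyme Ngly1 by -0.45. At 4 weeks 3 rose and 1 fell, with Maff at 1.05, Mafg at 0.53, Foxo3 at 0.42 and Nfyb at -0.56. Of 6 ubiquitin and E1 genes Uba6, at 0.48, and Rps27a, at 0.45, rose at 8 weeks and 0 were called at 4 weeks. Of all genes 5.66% were called at 4 weeks and 52.5% at 8 weeks.

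Among muscle ubiquitin ligases, 2 of 16 rose at 4 weeks and 1 fell, where 5.66% of all genes were called. The atrophy ligase Fbxo32 was at 2.11 (SE 0.48, edgeR adjusted p = 0.00895), Klhl38 at 1.66 and Trim55 at -0.51. Trim63, the other atrophy ligase, was at 0.77 (SE 0.24, edgeR adjusted p = 0.0548). The Fbxo32 call was lost without knockout mouse 7, with only the groups compared (adjusted p = 0.281) and with the sex term (adjusted p = 0.151), and the value was 3.42 in pool A alone and 0.44 (adjusted p = 0.999) in pool B alone. At 8 weeks 1 rose and 7 fell, or 50% called where 52.5% of all genes were, with Fbxl22 at 2.87, Asb2 at -1.39, Klhl38 at -1.20, Trim63 at -0.72, Trim54 at -0.63, Mylip at -0.59 and Fbxo40 at -0.56, and Fbxo32 was not called, at -0.69 (SE 0.46, edgeR adjusted p = 0.209). Scaled by library sizes alone, Trim63 was at 0.065 and Fbxo32 at 0.048, and of the 7 lower ligases 2 stayed negative and all lay below the all-gene median. In the fit over all libraries the effect at 8 weeks was below that at 4 weeks for Fbxo32, at -2.81 (SE 0.66, edgeR adjusted p = 0.00222), Klhl38, at -2.86 (SE 0.56, edgeR adjusted p = 0.000384), and Trim63, at -1.49 (SE 0.34, edgeR adjusted p = 0.00177).

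Of 25 genes of class I antigen processing and the interferon response, 11 rose and 3 fell at 8 weeks, or 56% called where 52.5% of all genes were, with a median of 0.24 (1.07 with library sizes alone, where all genes had 0.82). Tap1, the peptide transporter beside Psmb9 in the genome, changed by 1.22 (SE 0.25, edgeR adjusted p = 0.000123), Tapbp by 0.40, the class I light chain B2m by 0.46, and the regulators Irf8 by 1.94, Stat2 by 1.17, Irgm2 by 1.03 and Irf1 by 0.23. The B2m call was lost without the filter (adjusted p = 0.0643), in pool A alone, with the sex term (adjusted p = 0.0572), without the rRNA-rich libraries (0.33, adjusted p = 0.192), those and mouse 36, or any of 4 single libraries. The Irf1 call was lost without the filter, in either pool alone, with only the groups compared (adjusted p = 0.221), with the sex term, or without any of 8 single libraries. Jak2 fell by 1.87 (SE 0.15, edgeR adjusted p = 1.12e-11). At 4 weeks Jak2 alone was called, at -0.61, where 5.66% of all genes were called. Of the exon bases of Psmb9 5.79% overlap Tap1 on the other strand.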

How the data were processed

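RNA-seq was measured in 37 gastrocnemius libraries from stranded, rRNA-depleted 38-bp paired-end reads, per the labels. The deposited table holds raw counts per Ensembl gene, which the authors made with STAR 2.5.2b and featureCounts 1.5.2 on mm10, per the submitters' processing notes, which also name edgeR 3.22.0. Annotation, strand setting and whether reads or pairs were counted are not given in the sources used here. Identifiers were matched to GENCODE vM21 (50462 of 50686). The pathway members and gene lists were chosen with earlier results of these data known. Groups came from the genotype and age labels.

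Counts were filtered with filterByExpr (minimum 10 in a library, 15 in total), scaled by TMM (factors 0.443 to 1.59) and fitted with edgeR 4.0.16 (limma 3.58.1, R 4.3.3) quasi-likelihood over all 37 libraries in 8 groups with the sequencing pool as a covariate. This left 28 residual degrees of freedom, and the common coefficient of biological variation was 0.189. P-values were Benjamini-Hochberg adjusted over 16728 genes, at a threshold of 0.05. The median library held 16827002 counts. CPM are per TMM-scaled library size, class levels use log2 CPM with a prior count of 2, and ratios use CPM per kb of exon. Genes described with values were the catalytic and immunoproteasome subunits, in each other class the 2 members with the smallest p at 4 and at 8 weeks, members called against the majority, and Psmd12 and Psmd4, which were added after their values were seen. From each other list up to 5 genes with the smallest p were named beside a preset few, of which some are not reported here. The fit was tested on simulated counts. Alternatives were RLE factors, library sizes alone, no filter, DESeq2 1.42.0, a fit of the compared groups only, each pool separately, no pool covariate, labelled sex as a term, a higher CPM minimum, and fits without the rRNA-rich libraries, wild-type mouse 36, the 3 libraries at odds with their labelled sex, or each library in turn. Tables and figures were made with python 3.11.15.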

Additional observations from a re-analysis of the deposited data

Results flagged for a closer look

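Among 144 groups of 4 to 10 libraries tested for the 24 members described by rule, 9 held a library far from the others, where chance alone gives about 1 in 20 groups. Psma4 was 99.5 CPM in wild-type mouse 1 at 4 weeks, against 77.5 to 85.2 CPM in its group. Psme1 was 38.5 CPM in the same mouse, against 18.8 to 24.3 CPM. Knockout mouse 8 at 4 weeks, the rRNA-rich knockout library, had 120 CPM of Psmd7, against 78.2 to 82.6 CPM, and 58 CPM of Psme3, against 32.8 to 39 CPM. At 2 weeks wild-type mouse 25 had 7.35 CPM of Psmb8, against 3.14 to 3.69 CPM, and 3.13 CPM of Psmb9, against 1.10 to 1.36 CPM. Psmb9 was also apart in knockout mouse 7 at 4 weeks, with 3.38 CPM against 0.652 to 1.42 CPM, and in knockout mouse 39 at 8 weeks, with 5.16 CPM against 3.25 to 3.90 CPM. Psmb6 was 125 CPM in knockout mouse 31 at 2 weeks, against 129 to 130 CPM, a small gap in a narrow group.

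By edgeR's test of the difference itself, the knockout effect at 8 weeks differed from that at 4 weeks for 8 members. These differences were -0.78 for Psme4 (SE 0.17, adjusted p = 0.00094), -0.73 for Psmd7 (SE 0.15, adjusted p = 0.000496), -0.45 for Psmd4 (SE 0.16, adjusted p = 0.0331) and -0.42 for Psma4 (SE 0.16, adjusted p = 0.0415). They were -0.35 for Psmd12 (SE 0.11, adjusted p = 0.0201), -0.32 for Psmc2 (SE 0.11, adjusted p = 0.0303), 0.47 for Psmd5 (SE 0.13, adjusted p = 0.0057) and 0.81 for Psmb8 (SE 0.31, adjusted p = 0.0462). From 6 to 8 weeks Psmd7 differed by -0.74 (SE 0.20, adjusted p = 0.0405).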

How the results depend on the processing

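Counts of members called are given here as main value and alternatives. At 2 weeks (0 called), fitting only the groups compared gave 1. At 4 weeks (3 called) library sizes alone, pool B alone, only the groups compared and the sex term gave 0, and no filter and leaving out the rRNA-rich libraries gave 1. At 6 weeks (1 called) library sizes alone, pool B alone and only the groups compared gave 0, DESeq2 4, without the rRNA-rich libraries 3, and without mouse 36 too 9. At 8 weeks (24 called) library sizes alone gave 40 and pool A alone 7. For wild-type growth from 2 to 4 weeks (27 called) library sizes alone and pool A alone gave 4. From 4 to 8 weeks (8 called) library sizes alone gave 1, pool A alone 0, no filter and pool B alone 4, only the groups compared, the sex term and leaving out the rRNA-rich libraries and mouse 36 gave 3, and without the rRNA-rich libraries alone it was 5. In knockout muscle from 2 to 4 weeks (24 called) library sizes alone and pool B alone gave 6 and pool A alone 12, and from 4 to 8 weeks (26 called) pool A alone gave 4 and only the groups compared 17. The difference of effects for 6 minus 4 weeks (0 called) was 1 with DESeq2 and 3 without the rRNA-rich libraries and mouse 36. For 8 minus 4 weeks (8 called) it was 26 with library sizes alone, 3 with no filter, 2 in pool A alone, 4 in pool B alone, with only the groups compared and with the sex term, and 14 without the rRNA-rich libraries and mouse 36. For 8 minus 6 weeks (1 called) 3 were called under library sizes alone, and 0 without the filter, in pool A alone, in pool B alone, with only the groups compared, with the sex term and without the rRNA-rich libraries. Leaving out each library in turn gave 0 to 0 at 2 weeks, 0 to 4 at 4 weeks, 0 to 2 at 6 weeks (moving without wild-type mouse 16 or 17 or knockout mouse 20), 18 to 26 at 8 weeks, 24 to 29 and 3 to 11 for wild-type growth, 18 to 33 and 23 to 31 within knockout muscle, and 0 to 0, 0 to 0, 4 to 10 and 0 to 1 for the differences of effects. Where a 6-week group kept 1 library, it was assumed to vary like the other groups.

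With library sizes alone, class medians at 2 weeks were 0.18 (alpha ring), 0.19 (beta ring), 0.088 (cap ATPase), 0.11 (cap non-ATPase), 0.20 (chaperones) and 0.091 (other activators), and at 8 weeks 0.75, 0.85, 0.60, 0.60, 1.04 and 0.78, with 1.37 for the immunoproteasome. In pool A the 8-week comparison rests on 3 knockout and 2 wild-type libraries. Without the rRNA-rich libraries and mouse 36, the 8-week wild-type group is mice 37 and 38 alone, both of pool B. The alpha ring median at 6 weeks was -0.26 with RLE factors. Under library sizes alone these 8-week fold changes changed sign: Psma4 0.41, Psmb2 0.63, Psmb6 0.73, Psmb7 0.37, Psmc1 0.62, Psmc2 0.55, Psmc5 0.42, Psmc6 0.58, Psmd1 0.52, Psmd4 0.43, Psmd6 0.55, Psmd7 0.19, Psmd9 0.54, Psmd12 0.50 and Psme1 0.48, all below the median of all genes of 0.82. The shift follows from dropping the scaling factors. Positions relative to the all-gene median, here and for the other gene lists, are nearly fixed under it and are no separate check. The cause of the other changes was not tested. No paired analysis was possible because each mouse has its own number and no groups share them. Levels near 2 CPM, such as Psmb9, limit what can be called at this depth.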
